A study of Homo sapiens with 12 samples.

Results

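The 8 genes CD38, HLTF, NUDT19, RASSF8, FPR3, PIWIL1, ACAA2 and SNX9 were each strongly transcribed in some gastric cancer cell lines and lay at background in the others. They are 8 of the 14884 gene symbols measured, and each was represented by the transcript cluster of that symbol with the highest mean over all arrays. They were chosen because their signals differed between lines, so their levels in the lines are a description and carry no test. Treatment played no part in the choice, and the responses to treatment were tested.

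RNA was measured on 12 Affymetrix Human Gene 2.0 ST arrays, 1 for each of 4 treatments in each of 3 established gastric cancer cell lines, SNU601, MKN1 and AGS. The treatments were Rhosin, a compound that blocks activation of the small GTPase RHOA, then JK136 and JK139, known here by code names alone, and DMSO, the solvent. Doses and exposure times are not given in the sources used here. Every line therefore had 4 arrays that differ in treatment, every treatment had 3 arrays that differ in line, and no combination was repeated.

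All levels are log2 signals after robust multi-array averaging (RMA), which puts the arrays on a common scale. A line mean below 4.61, the 40th percentile of the 14884 gene means, is called background here, and a line mean of at least 6.46, the 75th percentile, is called high. The table held no detection p-values. A signal at background is a floor set by unspecific hybridization, so a gap between a high and a background line is a gap of signals and understates the ratio of RNA.

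The 3 lines are single lines, and a difference between them describes these lines and no wider class of tumours. The keratins KRT18 and KRT19 were high in each of them: KRT18 averaged 10.50 in SNU601, 10.75 in MKN1 and 9.63 in AGS, and KRT19 averaged 9.33, 9.72 and 8.27 in the same lines. KRT8 averaged 6.44 in SNU601, 6.55 in MKN1 and 6.16 in AGS, and KRT7 was high in MKN1 alone, with 3.79, 7.01 and 4.09 in these lines. MKN1 stood apart in other markers too. EPCAM averaged 6.49 in MKN1 against 10.04 in AGS, and the epithelial splicing factor ESRP1 averaged 4.11 against 8.95. Vimentin (VIM), an intermediate filament of mesenchymal cells, averaged 8.26 in MKN1 against 4.38 in AGS. Of 4 measured fibroblast markers, VIM and LUM were high in MKN1 and at background in SNU601 and AGS. DCN was at background in every line, and THY1 averaged 4.48 in MKN1, 4.60 in SNU601 and 4.63 in AGS. The sum of the 4 signals on an array was 22.9 to 23.7 in MKN1, 13.4 to 14.5 in SNU601 and 13.3 to 14.2 in AGS. The part of these markers in the levels of the genes that were high in MKN1 was not tested. Of 8 measured germ cell markers, all 8 lay at background in every line, DDX4 between 2.02 and 2.06 and DAZL between 3.52 and 3.81. The monocyte marker CD14 averaged 3.46 in SNU601, 4.67 in MKN1 and 3.33 in AGS, and the leukocyte markers PTPRC and CD3E were not analysed here. The lysosomal protein CD68, which many cell types carry, averaged 8.33 in SNU601, 8.65 in MKN1 and 6.14 in AGS. Over all clusters, Pearson's r was 0.978 to 0.988 for 2 arrays of a line and 0.927 to 0.960 across lines.

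A gene can be silent in one cell line and among the strongly transcribed in another when its promoter is closed or methylated, when a factor it needs is missing, or when its DNA was lost. Expression arrays measure none of these and give the RNA level alone, as a mean over the cells of a culture, so fewer expressing cells and less RNA per cell cannot be told apart. CpG dinucleotides, where vertebrate DNA is methylated, are frequent in the promoters of most widely used genes and rare in those of many tissue-specific genes.

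By these marks 280 of 14884 symbols (1.88%) were high in a line and at background in another, all 8 genes among them, which the choice of the genes fixed. The most frequent pattern, high in MKN1 alone, was held by 100 of the 280, including CD38, HLTF, NUDT19 and RASSF8. PIWIL1 was 1 of 11 high in SNU601 alone, FPR3 1 of 11 high in AGS alone, and ACAA2 and SNX9 were among 11 high in SNU601 and MKN1 and at background in AGS. No member shared the pattern of the 24 genes that were at background in MKN1 alone or of the 13 at background in SNU601 alone. The gap between the highest and the lowest line mean ran over the 8 genes between 5.08 (SNX9) and 7.25 (FPR3), while the median gap over all symbols was 0.42 and the largest 8.72. Only 35 symbols (0.235%) had a gap as large as that of SNX9, 32 of them high in a line and at background in another. The member nearest to the background mark was PIWIL1, with a line mean of 4.47 in AGS, and the nearest to the mark for high was SNX9, with 7.88 in MKN1.

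**Figure D1:**
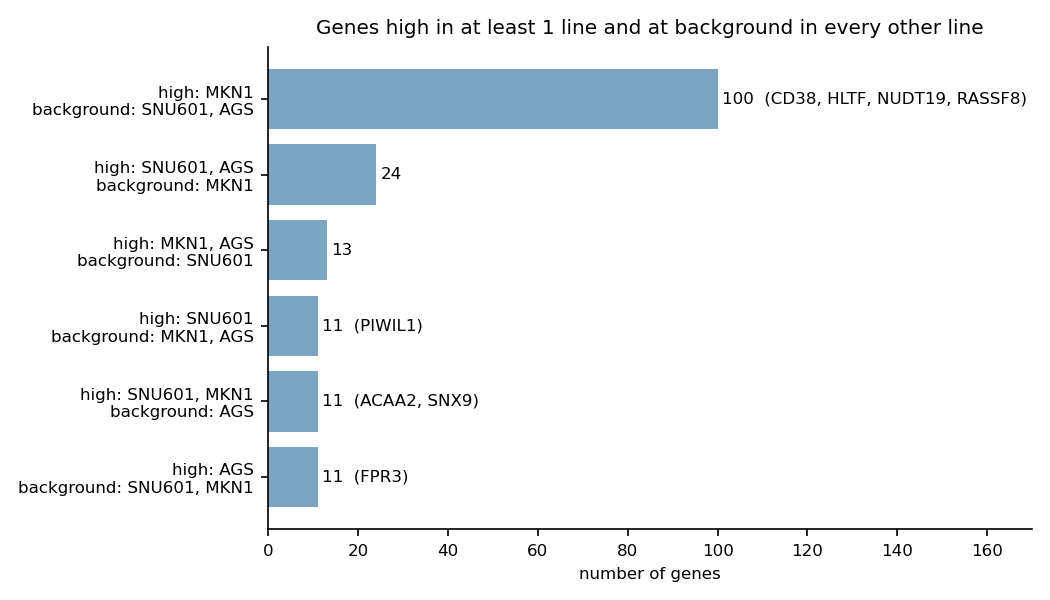
Bars give the number of genes (horizontal axis) in each pattern where every line was either high (mean log2 signal at least 6.46) or at background (below 4.61), with the described genes named at their pattern. MKN1 alone was high for 100 genes, against 11 each for SNU601 alone and AGS alone.

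Over the 96 values of the 8 genes, the 40 from high lines lay between 7.79 and 10.38 and the 56 from background lines between 2.40 and 4.63. No gene had a high-line array near a background-line array: the lowest of the high arrays exceeded the highest of the background arrays by 4.31 (SNX9) to 6.83 (FPR3). A single background array, PIWIL1 in AGS with JK139 at 4.63, lay above the mark of 4.61. The widest range among the 4 arrays of a line was 1.08, for ACAA2 in AGS, and the gap between lines was 4.93 times (ACAA2) to 24.0 times (FPR3) the widest range of that gene within a line.

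**Figure D2:**
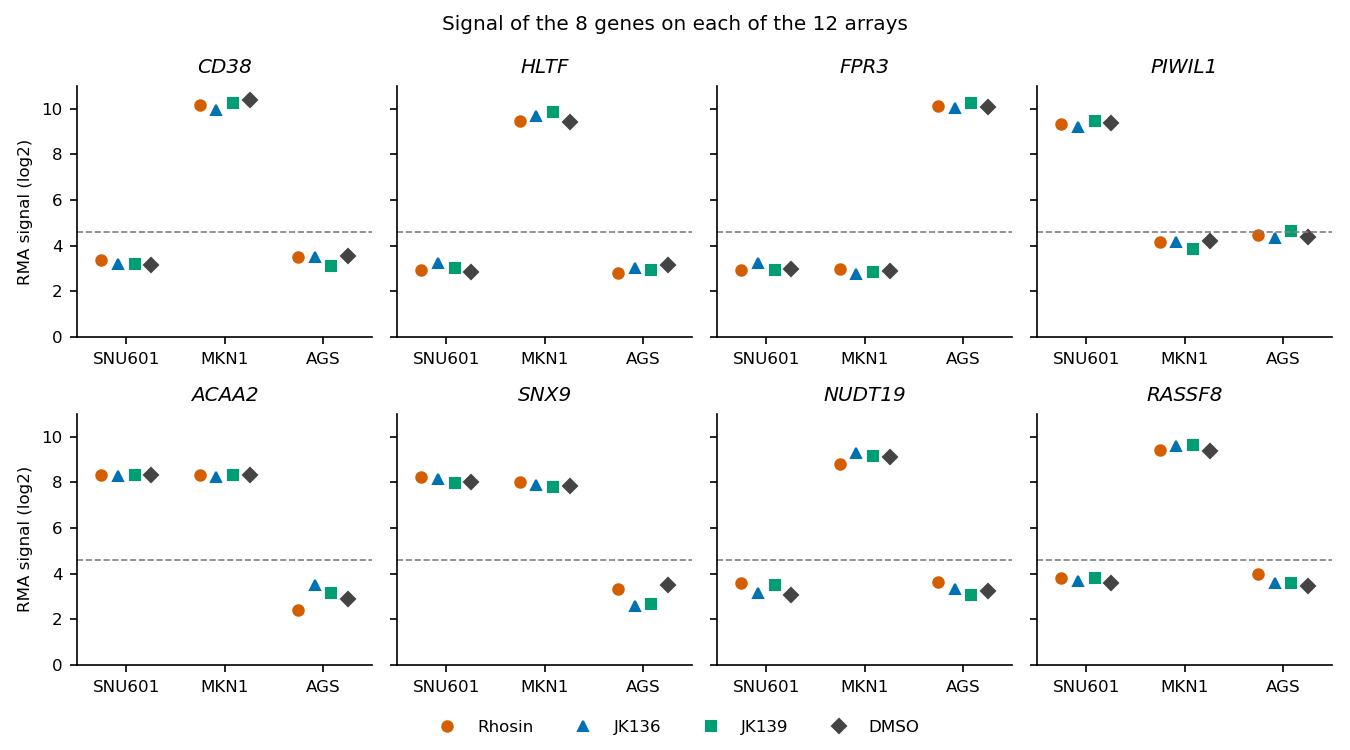
RMA signal (log2, vertical axis) of each of the 8 genes on each of the 12 arrays, 1 point per array, grouped by line and coloured by treatment; the dashed line is the background mark of 4.61. High arrays start at 7.79 and background arrays end at 4.63, whatever the treatment.

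CD38 (transcript cluster 16965268, chromosome 4) is a cell surface enzyme that breaks down NAD+ and makes the calcium messenger cyclic ADP-ribose, and is best known from plasma cells and activated lymphocytes. MKN1 had CD38 signals of 10.19 with Rhosin, 9.97 with JK136, 10.26 with JK139 and 10.38 with DMSO. In AGS they were 3.51, 3.52, 3.12 and 3.57 with the same treatments, and in SNU601 3.37, 3.22, 3.20 and 3.16. All 4 MKN1 arrays were therefore high, and the arrays of AGS and SNU601 overlapped at background. The line means were 10.20 ± 0.17 in MKN1, 3.43 ± 0.21 in AGS and 3.24 ± 0.09 in SNU601 (SD, n = 4 arrays each), a gap of 6.96 between MKN1 and SNU601. Markers of leukocytes did not run one way with CD38. LAPTM5 was high in MKN1 alone, with means of 6.88 in MKN1, 4.33 in AGS and 4.32 in SNU601, while LYZ, lysozyme, which gastric epithelium also makes, averaged 3.74 in MKN1, 10.83 in AGS and 11.84 in SNU601. CSF1R averaged 4.57, 4.68 and 4.80 in these lines. Of the 8 leukocyte markers measured, 4 were at background in MKN1 and 5 each in SNU601 and AGS, and the sum of their signals on an array was 38.7 to 40.3 in MKN1, 43.7 to 44.5 in SNU601 and 40.2 to 41.0 in AGS; the part of other cells in the level of CD38 was not tested.

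The promoter of CD38 is shown because it held the fewest CpG dinucleotides of the 6 promoters found for these genes. It covers chr4:15778078-15778377 of GRCh38.p14 on the plus strand (RefSeq, 250 bases before to 50 after the gene's start), and capitals mark CG:
CD38: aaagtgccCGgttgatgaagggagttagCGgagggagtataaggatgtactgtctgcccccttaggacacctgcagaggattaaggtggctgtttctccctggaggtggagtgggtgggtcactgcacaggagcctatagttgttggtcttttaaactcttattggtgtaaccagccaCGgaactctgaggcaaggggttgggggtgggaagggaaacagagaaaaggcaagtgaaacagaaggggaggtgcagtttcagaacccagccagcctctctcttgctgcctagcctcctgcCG
It held 4 CpG, and its ratio of observed to expected CpG, which corrects for base composition, was 0.195. Over all 27305 promoters of the table, 21.7% had a ratio as low or lower.

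Of 17 other listed genes of NAD+ metabolism, 16 were measured and 14 passed the filter, a mean of at least 4.61 over all arrays. None of the 16 (0) was high in a line and at background in another. Of the 14, 5 were at background in at least 1 line and passed the filter through another, among them BST1, SARM1, NMNAT2 and NNMT, which passed through MKN1. The filter selects such a gene for line means on both sides of the mark, so no count of calls is given for this list and these genes are given as levels. The remaining gene of this kind, NMRK2, averaged 4.57 in MKN1, 4.70 in AGS and 4.58 in SNU601 and was called in no comparison. SARM1, an NAD+ hydrolase of neurons, averaged 6.42 in MKN1, 4.57 in AGS and 4.22 in SNU601, and NMNAT2, an NAD+ synthesis enzyme, 6.27, 4.08 and 4.19. NNMT, which methylates nicotinamide, averaged 6.32, 4.40 and 4.27 in the same lines. NAPRT, which makes NAD+ from nicotinic acid and lay above the background mark in every line, was called lower in MKN1 than in AGS by 0.83 ± 0.08 (SE; adjusted p under 0.05 in limma, the call used throughout) and higher in SNU601 than in MKN1 by 1.78 ± 0.08.

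BST1, the gene next to CD38 and its paralog, codes for another NAD+-cleaving surface enzyme. Its means were 5.54 ± 0.13 in MKN1, 4.30 ± 0.22 in AGS and 3.99 ± 0.20 in SNU601 (SD, n = 4 arrays each). On the other side of CD38, FGFBP1, a carrier of fibroblast growth factors, averaged 8.06 in MKN1, 4.35 in AGS and 5.74 in SNU601. PROM1, the surface protein CD133, followed another order, with 6.65 in SNU601, 4.56 in MKN1 and 3.80 in AGS. Of the 6 nearest measured genes, 3 on each side, 4 were highest in MKN1, where 35.6% of all symbols were. FGFBP2, among these 4, lay at background in every line, with 2.99 in MKN1, 2.88 in AGS and 2.73 in SNU601.

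HLTF (transcript cluster 16960271, chromosome 3) is a DNA translocase and ubiquitin ligase that extends ubiquitin chains on PCNA and reverses stalled replication forks, and it is known to be silenced in a share of colorectal cancers. Its signals in MKN1 were 9.48 with Rhosin, 9.69 with JK136, 9.84 with JK139 and 9.43 with DMSO. AGS gave 2.82, 3.04, 2.94 and 3.15 with these treatments, and SNU601 gave 2.94, 3.24, 3.05 and 2.87. MKN1 was high on every array and the other lines overlapped. Means were 9.61 ± 0.19 in MKN1, 2.99 ± 0.14 in AGS and 3.02 ± 0.16 in SNU601 (SD, n = 4 arrays each), a gap of 6.62. A further cluster that carries the symbol HLTF (16946783) stayed at background on all 12 arrays, between 2.83 and 3.57, so the pattern rests on 1 of 2 clusters.

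Partners of HLTF at the replication fork were transcribed in all 3 lines. Of 17 listed genes, 10 were measured, all 10 passed the filter and 0 were at background in every line or high in a line and at background in another. Their largest gap was 0.79, against 6.62 for HLTF. RAD18, the ligase that places the initial ubiquitin on PCNA, was higher than in AGS by 0.77 ± 0.07 in MKN1 and by 0.76 ± 0.07 in SNU601 (SE). UBE2A, its ubiquitin-conjugating enzyme, was higher by 0.54 ± 0.09 in MKN1 and 0.68 ± 0.09 in SNU601 than in AGS. UBE2N, another ubiquitin-conjugating enzyme, was higher in SNU601 than in MKN1 by 0.79 ± 0.10. PCNA, the sliding clamp, averaged 8.83 in MKN1 against 9.32 in AGS, a difference of -0.49 ± 0.13 that passed the test. MKN1 against AGS had 7 of 10 called higher and 2 lower, where all genes tested had 35.3% higher and 31.0% lower. SNU601 against AGS had 7 higher and 1 lower, against 29.9% and 22.8% of all genes, and SNU601 against MKN1 2 higher and 1 lower, against 32.3% and 31.1%. The list medians were 0.27, 0.35 and 0.13, beside 0.02, 0.05 and 0.02 over all genes. The call of PCNA for SNU601 against AGS, -0.35 ± 0.13, was lost under 13 alternatives.

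NUDT19 (transcript cluster 16860545, chromosome 19) is a NUDIX hydrolase that, in mouse kidney, degrades coenzyme A in peroxisomes. In MKN1 it had signals of 8.81 with Rhosin, 9.27 with JK136, 9.15 with JK139 and 9.11 with DMSO. The same treatments gave 3.62, 3.33, 3.06 and 3.24 in AGS and 3.61, 3.15, 3.48 and 3.06 in SNU601. NUDT19 was thus high in MKN1 alone, at 9.08 ± 0.20, and nearly equal in AGS, at 3.31 ± 0.23, and SNU601, at 3.32 ± 0.26 (SD, n = 4 arrays each), a gap of 5.77.

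Of 24 listed NUDIX hydrolases and coenzyme A synthesis enzymes, 23 were measured, 20 passed the filter and 0 were high in a line and at background in another. Between MKN1 and AGS, 5 of the 20 were called higher and 6 lower, with a median of 0.00. SNU601 had 4 higher and 4 lower than AGS (median 0.03), and 9 higher and 6 lower than MKN1 (median 0.06). Over all genes tested the shares were 35.3% higher and 31.0% lower, 29.9% and 22.8%, and 32.3% and 31.1%. NUDT13 and PANK1 were at background in MKN1 and passed the filter through the other lines, so the filter selected them for line means on both sides of the mark. Both are among the 6 lower in MKN1 than in AGS and the 9 higher in SNU601 than in MKN1. NUDT4, a hydrolase of diphosphoinositol phosphates, was lower in MKN1 than in AGS by 2.30 ± 0.09 (SE), opposite to NUDT19. NUDT7, the other peroxisomal coenzyme A hydrolase, was higher in MKN1 than in AGS by 0.64 ± 0.12. COASY, which makes the last steps of coenzyme A synthesis, was higher by 0.77 ± 0.08 in the same comparison, and NUDT3, of the same activity as NUDT4, was higher in SNU601 than in MKN1 by 0.77 ± 0.08.

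RASSF8 (transcript cluster 16749316, chromosome 12) belongs to the N-terminal group of Ras-association domain proteins and acts at cell-cell junctions. Its MKN1 signals were 9.42 with Rhosin, 9.57 with JK136, 9.65 with JK139 and 9.35 with DMSO. With these treatments AGS had 4.003, 3.61, 3.59 and 3.45, and SNU601 had 3.78, 3.66, 3.82 and 3.57. Again MKN1 stood alone and the other lines overlapped. The means were 9.50 ± 0.14 in MKN1, 3.66 ± 0.24 in AGS and 3.71 ± 0.11 in SNU601 (SD, n = 4 arrays each), a gap of 5.83.

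Of 17 listed RASSF family members and partners of the Hippo pathway, 13 were measured, 8 passed the filter and 4 were at background in every line; 0 were high in a line and at background in another. MKN1 had 4 of the 8 called higher and 2 lower than AGS (median 0.22). SNU601 had 4 and 2 against AGS (median 0.25), and 2 and 1 against MKN1 (median -0.08). Over all genes tested the shares were 35.3% higher and 31.0% lower, 29.9% and 22.8%, and 32.3% and 31.1%. RASSF4 was at background in SNU601, passed the filter through the other lines and was called in no comparison. RASSF3 averaged 7.57 in SNU601, 6.22 in MKN1 and 6.80 in AGS. RASSF5 was higher in MKN1 than in AGS by 0.89 ± 0.14 (SE). The Hippo kinase STK4 was higher in MKN1 than in AGS by 0.68 ± 0.08, while its scaffold SAV1 was lower by 1.91 ± 0.11.

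Most neighbours of NUDT19 and RASSF8 leaned the same way as these genes, by smaller amounts. Of the 6 nearest measured genes of NUDT19, all 6 were highest in MKN1, with gaps of 0.46 to 1.18 against 5.77 for NUDT19. CEP89, a centriole protein, averaged 7.49 in MKN1, 6.96 in SNU601 and 6.63 in AGS, and FAAP24, of the Fanconi anaemia complex, 6.28, 5.10 and 5.24. Of the 6 neighbours of RASSF8, 5 were highest in MKN1, and RASSF8-AS1, which overlaps RASSF8 in RefSeq, averaged 6.57 in MKN1 and 2.91 and 2.92 in SNU601 and AGS. LMNTD1 averaged 5.48 in MKN1, 2.30 in SNU601 and 2.45 in AGS, and FGFR1OP2 8.36, 6.33 and 5.83 in the same order. TM7SF3 averaged 10.33 in MKN1, 8.08 in SNU601 and 8.99 in AGS. Over all symbols, 35.6% were highest in MKN1. TDRD12 near NUDT19 and SSPN and MIR4302 near RASSF8 were at background in every line. SSPN averaged 4.18 in MKN1 and 4.12 in SNU601, and MIR4302 was lowest in MKN1, at 3.76 against 4.49 in SNU601. Whether probes of RASSF8-AS1 also read RNA of RASSF8, and whether the DNA of these regions differs in copy number, was not tested.

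**Figure D3:**
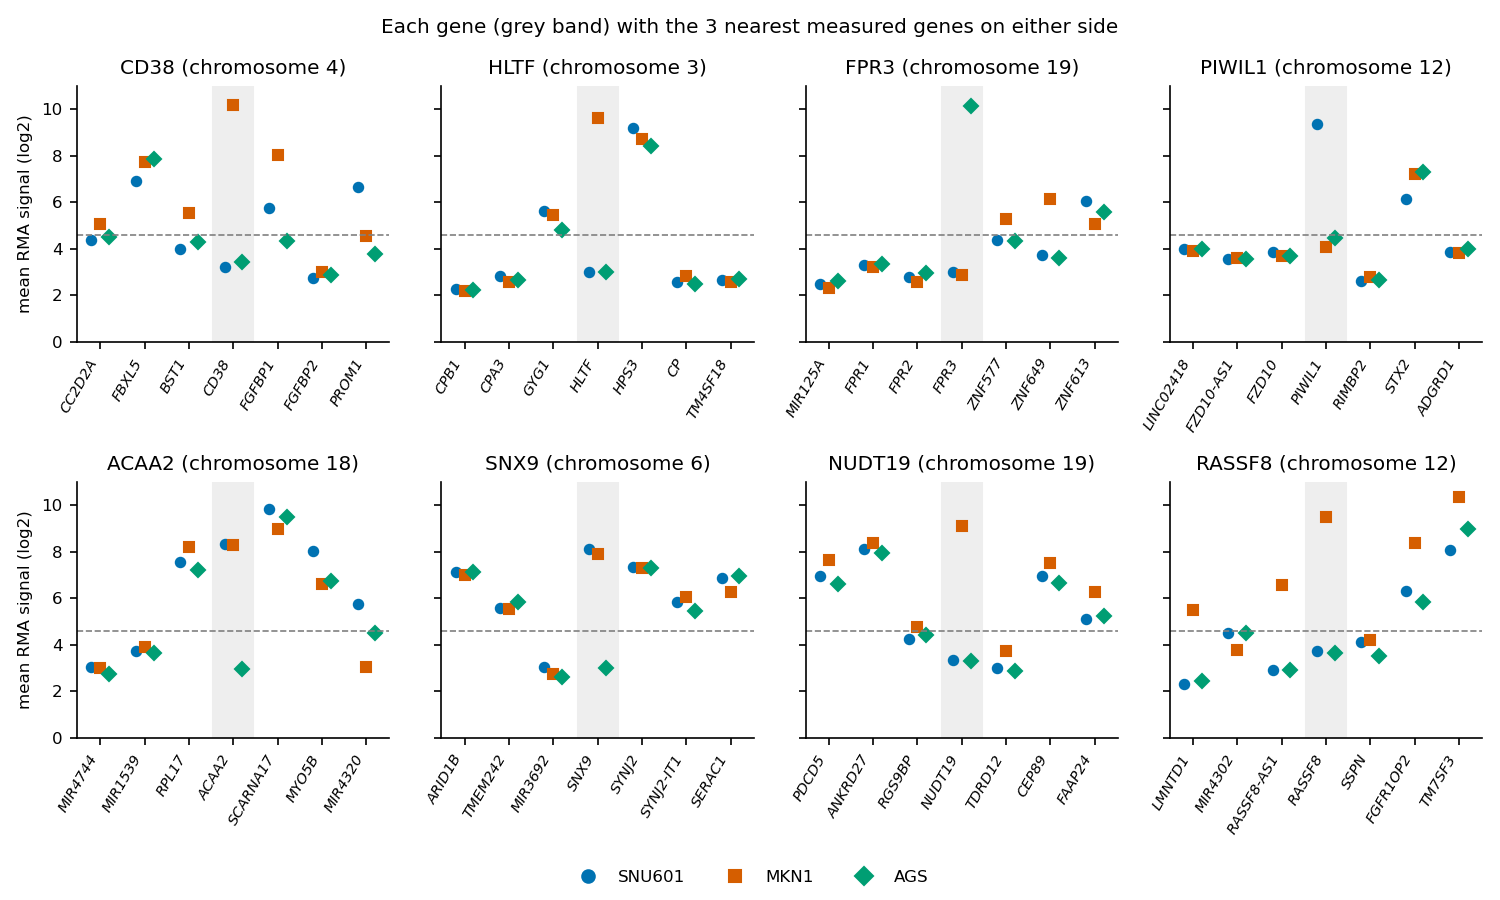
Mean RMA signal (log2, vertical axis, 4 arrays per line) of each described gene, in the grey band, and of the 3 nearest measured genes on either side in RefSeq order along the chromosome; the dashed line is the background mark of 4.61. The grey-band gaps are 5.08 to 7.25, the median gap of the 48 neighbours is 0.68, and 3 neighbours (FGFBP1, PROM1 and RASSF8-AS1) were high in a line and at background in another.

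The neighbours of HLTF did not share its pattern, and 1 of 6 was highest in MKN1. Of the 6, 4 were at background in every line, and HPS3, of a lysosome-related organelle complex, was high in all 3, with 9.21 in SNU601, 8.71 in MKN1 and 8.44 in AGS. Over all 48 neighbours, 19 were at background in every line, 11 were high in every line and 13 had a gap of at least 1.

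FPR3 (transcript cluster 16864756, chromosome 19) is a G protein-coupled receptor of the formyl peptide family, known from monocytes, macrophages and dendritic cells. AGS gave FPR3 signals of 10.11 with Rhosin, 10.05 with JK136, 10.26 with JK139 and 10.09 with DMSO. MKN1 gave 3.0001, 2.75, 2.83 and 2.91 with these treatments, and SNU601 gave 2.93, 3.23, 2.92 and 2.99. AGS was high on all 4 arrays, and the background values of MKN1 and SNU601 overlapped. The means were 10.13 ± 0.09 in AGS, 2.88 ± 0.11 in MKN1 and 3.02 ± 0.14 in SNU601 (SD, n = 4 arrays each), and the gap of 7.25 was the widest of the 8 genes.

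The neighbouring receptors FPR1 and FPR2, which share the family's ligands, were at background in every line. FPR1 averaged 3.33 in SNU601, 3.21 in MKN1 and 3.34 in AGS, and FPR2 2.81, 2.59 and 2.97. Of the 6 nearest measured genes, 3 were highest in AGS, where 30.2% of all symbols were, and those 3 lay at background. Of 10 listed receptors and ligands, all 10 were measured, 4 passed the filter and 5 were at background in every line. The ligand gene HEBP1, whose processed peptide activates FPR3, averaged 6.38 in SNU601, 6.68 in MKN1 and 7.14 in AGS. ANXA1, a ligand of FPR1 and FPR2, was higher in MKN1 than in AGS by 3.25 ± 0.15 and in SNU601 than in AGS by 1.79 ± 0.15 (SE). Each of the comparisons of MKN1 and SNU601 with AGS called 1 gene of the 4 higher and 1 lower. SNU601 against MKN1 called 0 higher and 2 lower. All genes tested had 35.3% higher and 31.0% lower, 29.9% and 22.8%, and 32.3% and 31.1% in the same order. The list medians were -0.04 for MKN1 against AGS, 0.07 for SNU601 against AGS and -0.10 for SNU601 against MKN1. The call of HEBP1 for SNU601 against MKN1, -0.30 ± 0.11, was lost without any of 4 single arrays.

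PIWIL1 (transcript cluster 16759159, chromosome 12) is a PIWI protein that binds piRNAs and silences transposons in the male germ line, and its RNA has been found in some gastric cancers. SNU601 had PIWIL1 signals of 9.32 with Rhosin, 9.21 with JK136, 9.47 with JK139 and 9.39 with DMSO. In MKN1 the signals were 4.19, 4.15, 3.85 and 4.20 with the same treatments, and in AGS 4.48, 4.36, 4.63 and 4.39. SNU601 alone was high, at 9.35 ± 0.11, against 4.10 ± 0.17 in MKN1 and 4.47 ± 0.12 in AGS (SD, n = 4 arrays each), a gap of 5.25. The lowest AGS array, 4.36, lay above the highest MKN1 array, 4.20. Of the 6 genes with 2 background lines, PIWIL1 was the only one whose arrays in these lines did not overlap, and the means differed by 0.37. With the background mark at the 30th percentile, 7 of the 8 genes kept their description, all but PIWIL1.

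Most other genes of the piRNA pathway were at background: of 24 listed, 14 were measured, 3 passed the filter and 9 were at background in every line. The 3 that passed were all high in a line and at background in another, none of them in the pattern of PIWIL1. PIWIL4, a PIWI protein of wider expression, averaged 5.72 in SNU601, 4.13 in MKN1 and 6.67 in AGS. TDRKH, a mitochondrial tudor protein of piRNA maturation, averaged 5.07, 6.59 and 4.22 in these lines. PNLDC1, the nuclease that trims piRNA ends, averaged 3.54, 8.11 and 3.43. Each of the 3 was at background in at least 1 line and passed the filter through another, so no count of calls is given. GTSF1, a PIWI-associated zinc finger protein, and HENMT1, which methylates piRNA ends, did not pass, with means of 2.94 and 2.97 in SNU601, 5.94 and 5.98 in MKN1 and 2.84 and 2.57 in AGS, and were picked after their values were seen. Near PIWIL1, 5 of 6 neighbours were at background in every line, and STX2, a syntaxin of membrane fusion, averaged 6.15 in SNU601, 7.22 in MKN1 and 7.32 in AGS.

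ACAA2 and SNX9 share the pattern of a background signal in AGS alone. ACAA2 (transcript cluster 16855184, chromosome 18) is the mitochondrial thiolase of the last step of fatty acid beta-oxidation. SNX9 (transcript cluster 17014091, chromosome 6) is a sorting nexin that bends membranes and brings dynamin to clathrin-coated pits. Their promoters are shown side by side because the genes share a pattern and SNX9 had the most CpG of the promoters found. They cover chr18:49813484-49813783 on the minus strand and chr6:157822996-157823295 on the plus strand of GRCh38.p14 (RefSeq, 250 bases before to 50 after the start), with CG in capitals:
ACAA2: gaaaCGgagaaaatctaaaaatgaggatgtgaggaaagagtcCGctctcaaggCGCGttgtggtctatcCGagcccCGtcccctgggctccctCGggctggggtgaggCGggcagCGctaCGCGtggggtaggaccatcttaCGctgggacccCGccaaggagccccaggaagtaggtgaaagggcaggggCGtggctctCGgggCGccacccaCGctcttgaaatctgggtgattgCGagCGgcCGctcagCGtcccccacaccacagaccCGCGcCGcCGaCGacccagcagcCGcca
SNX9: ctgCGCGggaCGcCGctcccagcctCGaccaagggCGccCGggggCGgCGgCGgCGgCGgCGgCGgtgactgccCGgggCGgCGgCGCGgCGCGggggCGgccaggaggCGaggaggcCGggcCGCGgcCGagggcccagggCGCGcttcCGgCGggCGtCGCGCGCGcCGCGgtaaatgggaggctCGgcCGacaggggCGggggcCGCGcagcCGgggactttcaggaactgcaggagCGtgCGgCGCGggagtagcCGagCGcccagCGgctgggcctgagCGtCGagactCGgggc
The ACAA2 promoter held 27 CpG with an observed to expected ratio of 0.836, and that of SNX9 held 54 with a ratio of 1.11.

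In SNU601, ACAA2 had signals of 8.34 with Rhosin, 8.29 with JK136, 8.32 with JK139 and 8.33 with DMSO. In MKN1 it had 8.32, 8.23, 8.30 and 8.33 with these treatments, and in AGS 2.40, 3.48, 3.13 and 2.88. The high lines did not differ beyond their spread, with means of 8.32 ± 0.02 in SNU601 and 8.29 ± 0.04 in MKN1, against 2.97 ± 0.46 in AGS (SD, n = 4 arrays each). The gap was 5.35. Among the 8 genes and 3 lines, ACAA2 in AGS had the widest range over the 4 arrays, and all 4 stayed at background.

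SNX9 signals were 8.23 with Rhosin, 8.13 with JK136, 7.99 with JK139 and 8.01 with DMSO in SNU601. MKN1 gave 8.02, 7.89, 7.79 and 7.83 with the same treatments, and AGS 3.31, 2.59, 2.65 and 3.49. SNU601 and MKN1 overlapped at high level, and AGS was at background throughout. The means were 8.09 ± 0.11 in SNU601, 7.88 ± 0.10 in MKN1 and 3.01 ± 0.46 in AGS (SD, n = 4 arrays each), a gap of 5.08. In the DMSO arrays alone the gap was 4.53.

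The other measured genes of mitochondrial fatty acid oxidation lay above the background mark in AGS, unlike ACAA2. Of 22 listed genes, 10 were measured, all 10 passed the filter and 0 were at background in every line or high in a line and at background in another. HADH, the enzyme of the step before ACAA2, averaged 6.50 in SNU601, 6.42 in MKN1 and 6.57 in AGS, and was picked after its values were seen. ETFDH, which passes electrons from the oxidation to ubiquinone, was higher than in AGS by 1.14 ± 0.10 in MKN1 and 0.79 ± 0.10 in SNU601 (SE). ECI2, an enoyl-CoA isomerase, averaged 3.48 in SNU601, 5.62 in MKN1 and 5.80 in AGS. It was at background in SNU601 and passed the filter through the other lines, so it is given as levels. ACSL1, which activates fatty acids, was higher in MKN1 than in AGS by 1.23 ± 0.09. The peroxisomal thiolase ACAA1 was higher in SNU601 than in AGS by 0.77 ± 0.13. MKN1 against AGS had 4 of 10 called higher and 2 lower, SNU601 against AGS 5 and 1, and SNU601 against MKN1 3 and 5. All genes tested had 35.3% higher and 31.0% lower, 29.9% and 22.8%, and 32.3% and 31.1% in these comparisons. The counts include ECI2, which the filter selected for line means on both sides of the mark. ECI2 is the 1 called lower in SNU601 than in AGS and among the 5 lower than in MKN1. The list medians were 0.15, 0.20 and -0.09.

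Of 22 listed genes of clathrin-mediated endocytosis other than SNX9, 14 were measured, and 12 of them lay above the background mark in AGS and passed the filter. The other 2 were at background in every line, and 0 were high in a line and at background in another. SNX18, a paralog of SNX9, averaged 6.62 in SNU601, 5.53 in MKN1 and 5.77 in AGS, and was called higher in SNU601 than in AGS by 0.85 ± 0.12 (SE). The dynamin gene DNM1 was higher in MKN1 than in AGS by 2.08 ± 0.07, and SYNJ1, which uncoats vesicles, by 0.81 ± 0.09. FCHO2, an early pit protein, was lower in MKN1 than in AGS by 0.76 ± 0.08. MKN1 against AGS had 4 of 12 called higher and 3 lower, SNU601 against AGS 7 and 1, and SNU601 against MKN1 5 and 4. All genes tested had 35.3% higher and 31.0% lower, 29.9% and 22.8%, and 32.3% and 31.1% in these comparisons. The list medians were 0.12, 0.26 and 0.03.

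Beside SNX9, SYNJ2, a paralog of SYNJ1, was high in all lines, with 7.32 in SNU601, 7.27 in MKN1 and 7.31 in AGS. The median gap of the 6 neighbours of SNX9 was 0.34 and that of the 6 neighbours of ACAA2 0.92. MYO5B, a motor protein next to ACAA2 but for a small RNA gene, averaged 8.03 in SNU601, 6.61 in MKN1 and 6.74 in AGS. Of the neighbours, 2 of 6 for SNX9 and 3 of 6 for ACAA2 were lowest in AGS, where 34.3% of all symbols were.

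Over all 8 pathway lists together, 110 of 153 genes were measured, 81 passed the filter, and 3 (2.73% of the 110) were high in a line and at background in another, beside 1.88% of all symbols. Calls were made for 55 of the 81 (67.9%) between MKN1 and AGS, 45 (55.6%) between SNU601 and AGS, and 55 (67.9%) between SNU601 and MKN1. All genes tested had 66.3%, 52.7% and 63.4% called in these comparisons. Of the 81, 12 (14.8%) were at background in a line and passed the filter through another, as were 1083 (12.1%) of all genes tested.

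Promoters in the table were found for 6 of the 8 genes, all but FPR3 and RASSF8. Besides the 3 shown, the ratio of observed to expected CpG was 0.863 for HLTF, 0.749 for PIWIL1 and 0.690 for NUDT19. A ratio of at least 0.6 was reached by 5 of the 6, and by 49.0% of all 27305 promoters, 81.7% of the 6940 of genes past the filter and 66.5% of the 203 of genes high in a line and at background in another. It was reached by 91.4% of promoters of genes high in every line and by 40.02% of those of genes at background in every line. CD38 and HLTF, which had the same pattern over the lines, lay at 0.195 and 0.863. CpG counts describe the sequence, and methylation was not measured.

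**Figure D4:**
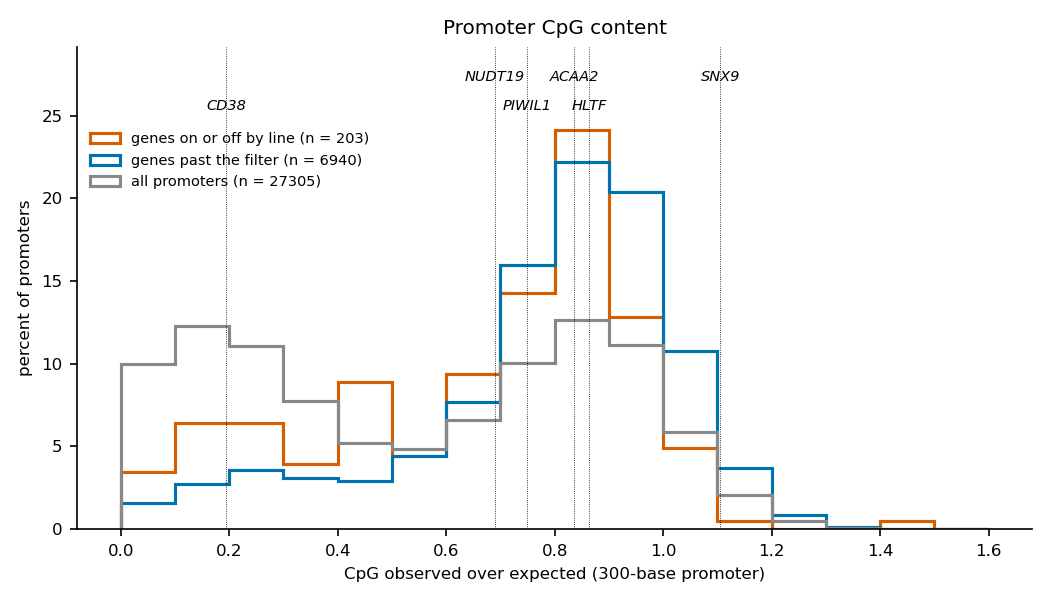
Percent of promoters (vertical axis) by ratio of observed to expected CpG in the 300 bases around the gene's start (horizontal axis, steps of 0.1), for genes on or off by line, all genes past the filter and all promoters. Dotted lines mark 6 of the described genes: CD38 lies at 0.195 and the other 5 between 0.690 and 1.11.

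By Pearson's r over the 12 arrays, the genes most like each member were looked up among the other 279 genes high in a line and at background in another. Because the arrays fall into 3 lines, r mainly records the shared pattern over lines, and it is given with no test. CD38 was closest to ANTXR1, an anthrax toxin receptor (r = 0.998), FN1, fibronectin (0.998), and HLTF (0.998). HLTF was closest to IGFBP3 (0.999), GAGE13 (0.998) and FN1 (0.998). NUDT19 was closest to IGFBP1 (0.999), RASSF8 (0.999) and GAGE12J (0.998), and RASSF8 to GAGE12J (0.999), NUDT19 (0.999) and SCRN1 (0.999). GAGE genes are near-identical copies on the X chromosome, so which copy was read is uncertain. Between 54 and 67 of the 279 genes had r over 0.99 with each of these 4 genes. FPR3 had 1 gene over that mark, PASD1, a cancer-testis gene (0.998), followed by MIR373 (0.9897) on its own chromosome 19 and THBS1, thrombospondin 1 (0.982). PIWIL1 was closest to CLDN18, the stomach claudin (0.998), AFAP1-AS1 (0.996) and MUCL3 (0.993). ACAA2 was closest to IDS, a lysosomal sulfatase (0.995), ANXA5 (0.995) and HERC6 (0.988), and SNX9 to LONRF3 (0.991), HERC6 (0.989) and TMEM185A (0.988).

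The comparisons of each compound with DMSO asked whether the levels of these genes moved with treatment. With Rhosin, JK136 and JK139 as with DMSO, every array of a high line was at least 7.79 and every array of a background line at most 4.63. The choice of the genes by line favoured this separation, so it is a description and no evidence on treatment. Of the 8 genes, 0 were called with any compound. Over all 8930 genes tested, limma called 0 (0%) for each compound, with 560, 469 and 218 genes at an unadjusted p under 0.05 for Rhosin, JK136 and JK139, where 446.5 are expected by chance. The F test over all treatments also called 0 of 8930 (0%), with 554 genes at an unadjusted p under 0.05, and the adjusted p of the 8 genes lay between 0.816 and 0.9996. The median size of the log2 fold change over the 8 genes was 0.07 with Rhosin, 0.15 with JK136 and 0.11 with JK139, beside 0.09, 0.08 and 0.07 over all genes tested. The 95% interval of a fold change extended a median of 0.27 to each side over the 8 genes. All comparisons share the 3 DMSO arrays.

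RASSF8 had the largest fitted change with Rhosin, 0.28 ± 0.12 (SE, 3 lines, 95% interval 0.02 to 0.53, adjusted p = 0.752), and lay above DMSO in 3 of 3 lines. That difference was 0.07 in MKN1, its high line, and 0.55 in AGS and 0.21 in SNU601, where RASSF8 is at background. RASSF8 also lay above DMSO in 3 of 3 lines with JK136, by 0.15 ± 0.12, and with JK139, by 0.23 ± 0.12. Without the AGS array with Rhosin its change with that compound was 0.12. SNX9 had the largest with JK136, -0.24 ± 0.17 (95% interval -0.61 to 0.13, adjusted p = 0.936), and with JK139, -0.30 ± 0.17 (-0.67 to 0.07, adjusted p = 0.9999). Those values came from AGS, where SNX9 is at background: without the AGS line they were 0.09 and -0.03. NUDT19 had log2 fold changes of 0.21 ± 0.17 with Rhosin, 0.11 ± 0.17 with JK136 and 0.10 ± 0.17 with JK139. With Rhosin, NUDT19 differed from DMSO by -0.30 in MKN1, its high line. In AGS and SNU601, where NUDT19 is at background, the differences were 0.37 and 0.55. Without the MKN1 array with Rhosin, its value with Rhosin was 0.46 ± 0.14 (adjusted p = 0.387), above the 0.40 ± 0.12 of RASSF8, and neither was called. Without the MKN1 line it was 0.46 ± 0.16, and without the AGS array with Rhosin 0.08 ± 0.19. FPR3 had log2 fold changes of 0.01 ± 0.11 with Rhosin, 0.01 ± 0.11 with JK136 and 0.00 ± 0.11 with JK139. CD38 had log2 fold changes of -0.01 ± 0.13 with Rhosin, -0.14 ± 0.13 with JK136 and -0.18 ± 0.13 with JK139.

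**Figure D5:**
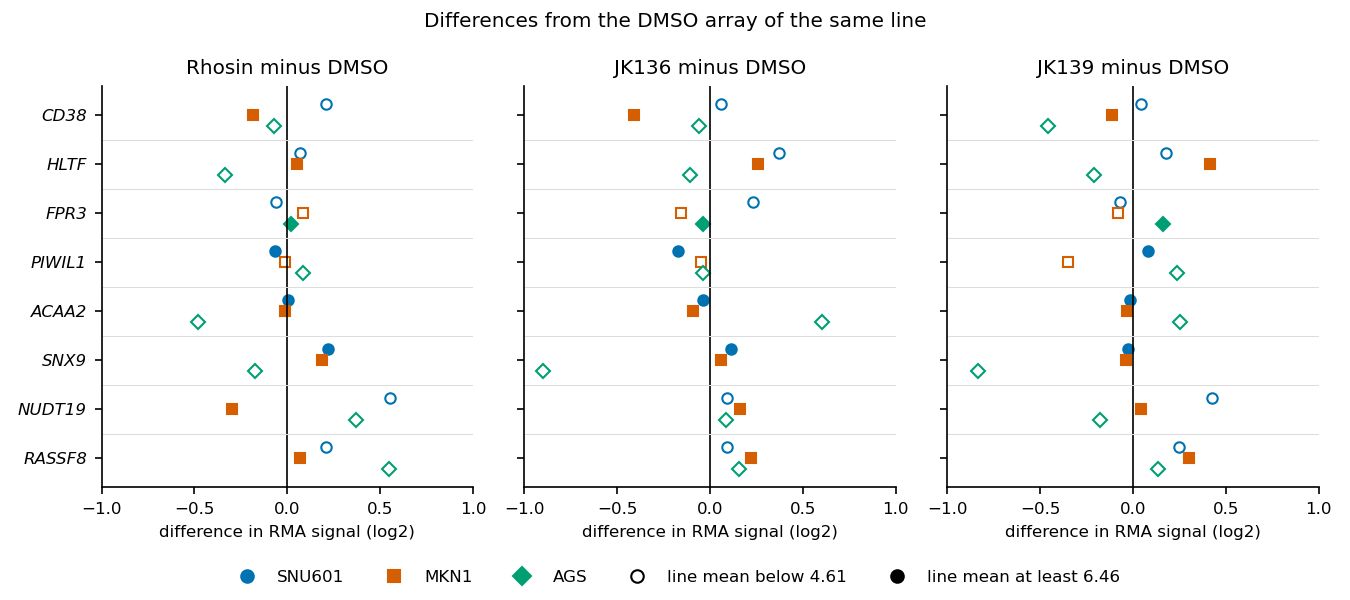
Difference in RMA signal (log2, horizontal axis) of each compound array from the DMSO array of the same line, for each of the 8 genes (rows), 1 point per line; filled points are high lines and open points background lines. The filled points stay within 0.42 of 0, while open points reach 0.90, for SNX9 in AGS.

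The 72 differences from DMSO within a line split by state. In high lines the 30 differences had a median size of 0.09 and a largest of 0.42 (HLTF in MKN1 with JK139), and 0 reached 1.5-fold. In background lines the 42 differences had a median size of 0.18 and a largest of 0.90, and 3 (7.14%) reached 1.5-fold: SNX9 in AGS with JK136 (-0.90) and JK139 (-0.83), and ACAA2 in AGS with JK136 (0.60). Over all symbols the median size was 0.11 in high lines and 0.19 in background lines, and 1.14% and 6.30% of these differences reached 1.5-fold. With 1 array per combination, a difference within a line has no replicate and no test.

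The interaction of line with any compound, tested by an F test in limma, asked whether responses differed between lines. It called 0 of 8930 genes (0%) and 0 of the 8, with 244 genes at an unadjusted p under 0.05 and an adjusted p of 0.9999 for each of the 8. This test takes the spread between the 3 compounds in a line as its error.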

How the data were processed

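The authors' deposited table held 53617 transcript clusters on 12 arrays as log2 signals from RMA, which corrects background, quantile-normalizes the arrays and summarises probes; the submitters' processing notes name RMA and Affymetrix Expression Console, with no versions in the sources used here. Values lay between 0.286 and 13.0, and array medians between 4.14 and 4.20. The platform annotation gave 1 symbol for 16098 clusters (30.0%) and 0 with several; the other 37519 clusters were left out. For each of the 14884 symbols, the cluster of highest mean was used. The number of arrays limits the precision.

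Line and treatment were taken from the sample titles. Genes with a mean of at least 4.61 (40th percentile) were tested, 8930 in all, with limma 3.58.1 in R 4.3.3, treatment and line as fixed terms over all 12 arrays (6 residual degrees of freedom) and Benjamini-Hochberg adjustment over all genes tested; an adjusted p under 0.05 was called. The lines are the replicates of a treatment, and p-values for a line measure the spread between arrays of different treatment, since no cultures were repeated. RASSF8-AS1, LMNTD1 and other neighbours below the filter have fits without it. The scripts were checked on simulated data.

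The 8 genes, the gene lists, the marks and the alternatives were chosen with earlier results of these data known. Named besides the 8 genes were the 3 genes most like each by Pearson's r, the 3 nearest measured genes on either side, up to 4 genes per pathway list with the largest called difference, and markers by highest mean plus defining ones. HADH, GTSF1, HENMT1, KRT7 and KRT8 were picked afterwards. Promoters and gene order came from RefSeq (GRCh38.p14). CpG observed over expected is the CG count times the length over the product of the C and G counts. Of the promoters found, those with the highest and lowest ratio were printed, with 1 more of the pattern of the highest.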

Additional observations from a re-analysis of the deposited data

Results flagged for a closer look

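CD38 in AGS with JK139, at 3.12, lay apart from the other 3 AGS arrays, which were 3.51 to 3.57. PIWIL1 in MKN1 with JK139, at 3.85, lay below the other 3 MKN1 arrays, which were 4.15 to 4.20. Both values are at background, both were picked up because their distance from the nearest array took up most of the range of the line, and chance alone gives about 1 such value in 20 groups. Groups of 4 arrays were examined for the 8 genes in 3 lines, 24 in all, and 2 stood out. In the other 22 groups, no array was as far from its neighbours by this measure.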

How the results depend on the processing

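Under every alternative run, 0 of the 8 genes were called with Rhosin, JK136 or JK139, in the test over all treatments (adjusted p of the 8 genes 0.584 to 0.99999) or in the interaction (0.954 to 0.999998). The alternatives were other normalizations, filters, priors, array weights, line as a random block, every cluster on its own, and leaving out each array or line. The interaction could not be fitted without the DMSO array of a line. Over all genes, 1 was called with Rhosin under a trended and robust prior (TIPARP, 0.74 ± 0.11), and 1 with JK136 with no filter and 1 with a filter at the 20th percentile (MIR329-1 in both, 1.005); these genes were named after their values were seen. The log2 fold change of SNX9 with JK136 turned to 0.087 without the AGS line. Leaving out single arrays, the line gaps were 6.90 to 7.04 (CD38), 6.54 to 6.68 (HLTF), 5.69 to 5.87 (NUDT19), 5.76 to 5.95 (RASSF8), 7.21 to 7.29 (FPR3), 5.17 to 5.30 (PIWIL1), 5.16 to 5.52 (ACAA2) and 4.94 to 5.24 (SNX9). With the DMSO arrays alone the gap between the same lines was 7.22 for CD38, 6.28 for HLTF and 4.53 for SNX9, and the other cluster of HLTF had a gap of 0.40. The number of genes high in a line and at background in another was 168 with background at the 30th percentile, 422 at the 50th, 620 with the mark for high at the 60th percentile, 152 at the 85th, and 177 when every array had to pass; 7 to 8 of the 8 genes were among them. With a CpG ratio of at least 0.75, 3 of the 6 promoters passed in place of 5. Between lines, 5558 to 7109 genes were called for MKN1 against AGS, 4186 to 4993 for SNU601 against AGS and 5234 to 6813 for SNU601 against MKN1. The call of ACAA1 for MKN1 against AGS was lost without any of 3 single arrays. The causes of these shifts were not tested. Compounds were compared with DMSO within lines, with line as a fixed term, and line as a random block also called 0 of the 8 genes. Signals at background have no detection p-value, which limits every statement on a line called background.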
